A study of Homo sapiens with 6 samples.

Results

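The genes described here are 39 genes of the unfolded protein response and of ER-associated degradation, taken by symbol from the 17891 genes of the deposited table: chaperones, oxidoreductases, stress sensors, eIF2alpha phosphatase subunits, degradation factors and 1 translocon-associated gene. They were measured by RNA sequencing in T47D, an established human line of luminal, hormone receptor-positive breast cancer. In the PRL group (3 libraries) the cells carried a lentivirus of the PLVX-puro system with PRL, which encodes the hormone prolactin. Cells of the control group (3 libraries) carried the lentivirus control. All cells of both groups had thus been through lentiviral transduction, were grown in RPMI medium with fetal bovine serum and received no further treatment. The labels give neither the promoter that drives PRL nor whether a line is a clone or a pool, and the series calls the libraries of a group biological replicates. If they came from 1 transduction, the p-values below measure only the spread between these samples.

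Secreted and membrane proteins fold in the endoplasmic reticulum (ER), where chaperones such as BiP hold unfolded chains and oxidoreductases form their disulfide bonds. When unfolded chains accumulate, the sensors IRE1alpha, PERK and ATF6 are activated: IRE1alpha splices XBP1 mRNA, PERK phosphorylates eIF2alpha and so lowers translation, and ATF6 is cut to release a transcription factor. XBP1 and ATF6 raise genes of folding and of ER-associated degradation, which moves misfolded proteins to the cytosol for the proteasome. The secretory mammary epithelium is a tissue in which these genes are in steady use. Gene-level read counts show neither XBP1 splicing nor the phosphorylation or cleavage of a sensor.

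The libraries held 16211146 to 17402348 estimated counts. In CPM, which are counts scaled to library size, a single count is worth 0.0575 to 0.0617. PRL itself had 8277, 8097 and 7789 counts in PRL libraries, against 3, 3 and 1 in control libraries, in the direction of the labels. All 8 luminal markers were detected: PGR, GATA3 and FOXA1 were called higher, and ESR1, KRT8, KRT18 and KRT19 lower. Their summed level, most of it from the 3 keratins, was 15480 to 15950 CPM in PRL libraries and 19810 to 25900 CPM in control libraries. The 5 basal or mesenchymal markers summed to 6.06 to 7.53 CPM in PRL libraries and 3.37 to 6.19 CPM in control libraries, with TP63 called higher. Immune markers summed to 20.7 to 22.3 CPM in PRL libraries and 7.05 to 9.38 CPM in control libraries, with CD3E and CD68 called higher. The 4 stromal markers summed to 71.4 to 72.1 CPM in PRL libraries and 42.5 to 59.1 CPM in control libraries, nearly all of it COL1A1, which was called higher. Their part in the results was not tested, and in bulk RNA fewer cells of a type and less RNA per cell cannot be told apart. Control replicate 3 lay closer to the PRL libraries (mean correlation of log2 CPM 0.944) than control replicates 1 and 2 did (0.928 and 0.930). Levels below are CPM after TMM scaling (trimmed mean of M values), and log2 fold changes are PRL against control cells, each with a standard error (SE). Adjusted p-values are from edgeR's quasi-likelihood test over all 14076 genes tested, with a threshold of 0.05.

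Most of these genes were higher in PRL cells, and the largest rises were in ERO1A, an ER oxidase, DNAJB9, a co-chaperone, HERPUD1, a degradation factor, and EIF2AK3, which encodes PERK. Of 38 genes that could be tested, 25 rose and 4 fell, and 9 did not pass. Among all genes tested 32.4% were called higher and 30.5% lower, against 65.8% and 10.5% of these members. Changes in either direction were called for 29 members, where 62.9% of all genes were so called. PRL libraries lay all above the controls for 28 members and all below for 5, where 35.9% and 33.5% of all genes did so, 69.5% in either direction. The members' median log2 fold change was 0.35, against 0.01 over all genes. Rises of at least 1.5-fold were called for 15 members, where 19.6% of all genes were so called, and falls of that size for 0 members, where 15.4% of all genes were. The 4 falls called by edgeR were all smaller than 1.5-fold, and the lowest log2 fold change of any tested member was -0.54, whatever its p. DERL3, a derlin gene, was the member not tested: it had 0, 1 and 0 counts in PRL libraries and 2, 0 and 1 in control libraries, all under the 3 counts that a level of 0 allows per library.

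**Figure D1:**
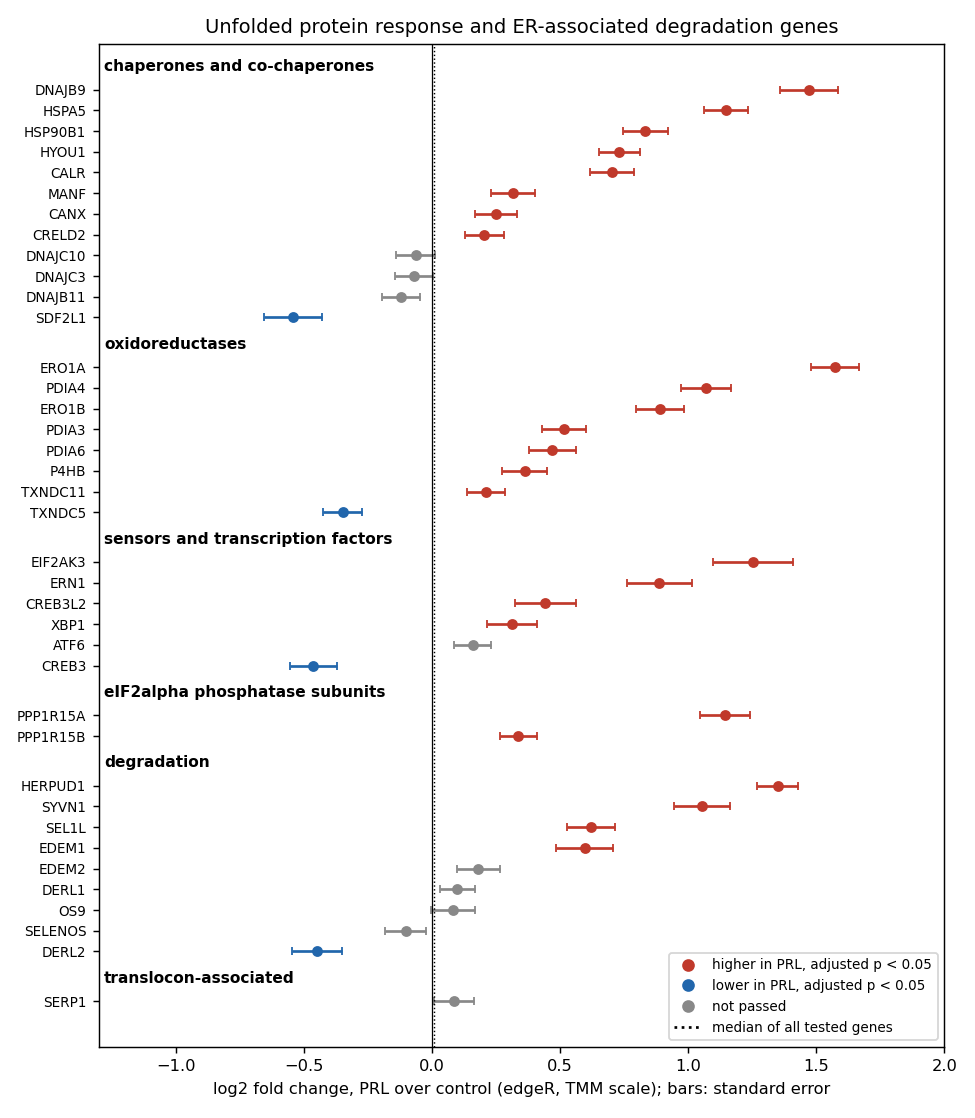
Log2 fold change of each tested member, PRL over control (horizontal axis, points), with its standard error (bars), grouped by role and coloured by the edgeR call. The points reach from -0.54 for SDF2L1 to 1.57 for ERO1A, and the dotted line at 0.01 is the median of all genes tested.

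The promoters of several of these genes hold the ER stress response element, the binding sequence through which ATF6 acts together with NF-Y. It reads CCAAT and CCACG with 9 bases of any kind between them. A second form, ATTGG and CCACG with 1 base between them, is known from HERPUD1. Windows from 250 bases before to 50 bases after the gene start (RefSeq, GRCh38.p14) were searched on both strands for exact matches, and 36 of the 39 members had a window; PDIA3, DERL1 and DERL3 had none. The sequences below carry the first form in 6 genes and the second in 3, with the fixed letters of the element in capitals. They are shown because they cover the largest rises among genes with an element, and also SERP1 and SDF2L1, which were not called higher on the TMM scale.
HSPA5 (chr9:125241379-125241421, minus strand): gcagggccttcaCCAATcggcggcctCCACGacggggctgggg
HSP90B1, distal (chr12:103930204-103930246, plus strand): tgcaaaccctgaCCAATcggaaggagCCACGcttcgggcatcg
HSP90B1, proximal (chr12:103930309-103930351, plus strand): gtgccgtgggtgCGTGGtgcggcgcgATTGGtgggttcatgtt
CALR (chr19:12938372-12938414, plus strand): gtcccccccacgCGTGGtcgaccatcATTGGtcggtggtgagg
XBP1 (chr22:28800591-28800633, minus strand): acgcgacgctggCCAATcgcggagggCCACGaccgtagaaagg
ERO1B (chr1:236282171-236282208, minus strand): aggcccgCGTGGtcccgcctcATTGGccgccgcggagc
SERP1 (chr3:150546698-150546740, minus strand): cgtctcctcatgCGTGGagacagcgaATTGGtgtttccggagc
HYOU1, distal (chr11:119057368-119057402, minus strand): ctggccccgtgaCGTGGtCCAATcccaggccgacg
HYOU1, proximal (chr11:119057262-119057296, minus strand): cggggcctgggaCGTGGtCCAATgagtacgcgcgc
HERPUD1 (chr16:56932013-56932047, plus strand): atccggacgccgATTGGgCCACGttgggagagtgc
SDF2L1 (chr22:21642102-21642136, plus strand): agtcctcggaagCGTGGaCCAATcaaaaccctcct

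An exact first form stood in 8 of 36 member promoters (22.2%) and in 22 of 27305 promoters of all genes (0.0806%). Among promoters of tested genes, members included, it stood in 16 of 11404 (0.14%). The 8 members were HSPA5, HSP90B1, CALR, CANX, CRELD2, ERO1B, XBP1 and SERP1, and HSP90B1 held it at 2 places. Of them 7 rose and none fell. Log2 fold changes of the 8 ran from 0.09 for SERP1, which was not called, to 1.15 for HSPA5, with a median of 0.51. Of the 28 tested members with a promoter window but without it, 17 rose and 4 fell, with a median of 0.35. Of 8 tested genes outside the list that held the element, 3 rose and 2 fell, with a median of -0.07. Among all genes tested 32.4% rose and 30.5% fell. The second form stood in HERPUD1, HYOU1 and SDF2L1, 8.33% of member promoters against 0.0549% of all. HERPUD1 and HYOU1 rose and SDF2L1 fell. TGACGTGG, a core sequence bound by XBP1, stood in DNAJC10, HYOU1 and TXNDC11 (8.33%, against 0.795% of all promoters), and in HYOU1 it overlapped the distal element above. The composite ATTGCATCA of ATF4 and CHOP stood in 0 of 36 member promoters and 0.264% of all. Both forms of the element are known from genes on the member list, so their excess among the members is not an independent result. A match is a description of these letters and was not tested for binding.

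**Figure D2:**
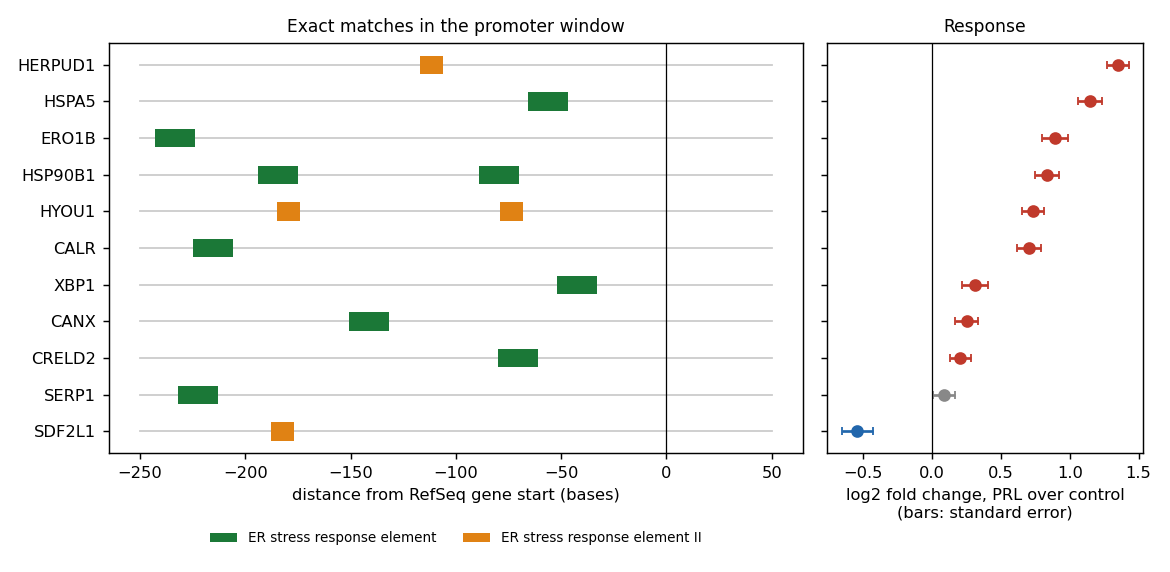
Exact elements by distance from the RefSeq gene start in bases (left, bars to scale, green for the first and orange for the second form) and the log2 fold change, PRL over control, with its standard error (right) for the 11 members that hold one. Genes are ordered by log2 fold change, from 1.35 for HERPUD1 to -0.54 for SDF2L1.

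The main ER chaperones rose together. Of 12 chaperone and co-chaperone genes 8 rose (66.7%, where 32.4% of all genes did) and 1 fell (8.33%, where 30.5% did), with a median of 0.28. HSPA5, which encodes BiP, the Hsp70 of the ER, spans bases 125234853 to 125241330 of GRCh38 chromosome 9. It had 1256, 1232 and 1216 CPM in PRL libraries, against 539.4, 535.7 and 597.4 CPM in control libraries. All PRL libraries were above all control libraries by a wide margin (log2 fold change 1.15, SE 0.09, edgeR adjusted p = 2.5e-06). HSP90B1, the Hsp90 of the ER, had 1426, 1443 and 1413 CPM in PRL libraries, against 752.5, 808.4 and 842.9 CPM in control libraries, again without overlap (0.83, SE 0.09, edgeR adjusted p = 2.2e-05). DNAJB9, a J-domain partner of BiP that restrains IRE1alpha, was much rarer but rose more. It had 18.7, 19.0 and 17.2 CPM in PRL libraries, against 6.17, 6.25 and 7.36 CPM in control libraries (1.47, SE 0.11, edgeR adjusted p = 2.8e-06).

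HYOU1, a large Hsp70-like exchange factor for BiP, had 341.4, 333.9 and 326.9 CPM in PRL libraries, against 186, 204 and 213.5 CPM in control libraries (0.73, SE 0.08, edgeR adjusted p = 2.6e-05). The groups did not overlap. CALR, the soluble lectin chaperone of glycoproteins, had 1733, 1784 and 1785 CPM in PRL libraries, against 1077, 1123 and 1056 CPM in control libraries (0.70, SE 0.09, edgeR adjusted p = 6.0e-05). Its membrane-bound relative CANX rose less, to 548 ± 5.69 CPM in PRL cells, against 460.2 ± 29.2 CPM in control cells (SD, n = 3 each, log2 fold change 0.25, edgeR adjusted p = 0.020). Small rises were also called for MANF, a secreted and ER-resident stress protein (0.32, edgeR adjusted p = 0.0082), and CRELD2, an ER-resident stress-inducible protein (0.20, edgeR adjusted p = 0.039). The calls of CANX and CRELD2 ended without each PRL library in turn, at edgeR adjusted p of 0.0704 to 0.0884 and 0.104 to 0.124, with PRL replicates 1 to 3 left out. Blocking on the replicate number ended them too, at 0.0647 and 0.0989.

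The remaining genes of this role did not pass or fell. DNAJB11, another J-domain partner of BiP, had 231.2, 234.2 and 236.2 CPM in PRL libraries, against 267.9, 244.5 and 250.7 CPM in control libraries, and did not pass (-0.12, SE 0.07, edgeR adjusted p = 0.169). DNAJC3, which also inhibits eIF2alpha kinases, had 48.0, 50.1 and 48.3 CPM in PRL libraries, against 52.0, 53.3 and 48.3 CPM in control libraries (-0.07, SE 0.07). DNAJC10, a J-domain reductase, had 42.3, 41.0 and 40.7 CPM in PRL libraries, against 41.9, 42.1 and 45.6 CPM in control libraries (-0.06, SE 0.07). The groups overlapped for DNAJC3 and DNAJC10, and their edgeR adjusted p were 0.439 and 0.471. SDF2L1, which forms a complex with DNAJB11, fell to 40.1, 41.4 and 42.7 CPM in PRL libraries, against 70.9, 60.0 and 50.2 CPM in control libraries (-0.54, SE 0.11, edgeR adjusted p = 0.0019). Control replicate 3 was the closest of its controls to the PRL libraries.

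Genes of disulfide bond formation rose in 7 of 8 cases (87.5%, where 32.4% of all genes did), and 1 fell, with a median of 0.49. ERO1A, the oxidase that regenerates protein disulfide isomerase, showed the largest rise of all members and spans bases 52639916 to 52695900 of GRCh38 chromosome 14. It had 252.3, 252.1 and 246.5 CPM in PRL libraries, against 81.1, 75.7 and 95.4 CPM in control libraries (1.57, SE 0.09, edgeR adjusted p = 4.5e-07), so that the PRL libraries stood far above the controls. Its paralogue ERO1B, known for its role in secretory cells such as pancreatic beta cells, had 22.8, 22.7 and 21.8 CPM in PRL libraries, against 11.2, 12.2 and 12.9 CPM in control libraries (0.89, SE 0.09, edgeR adjusted p = 2.3e-05). PDIA4, a disulfide isomerase, had 164.9, 166 and 166.1 CPM in PRL libraries, against 71.4, 73.9 and 91.4 CPM in control libraries (1.07, SE 0.10, edgeR adjusted p = 8.4e-06). The PRL libraries of PDIA4 were almost equal, while control replicate 3 was above its other controls.

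The more abundant isomerases moved less. PDIA3, which works with the lectin chaperones, rose to 819 ± 15.98 CPM in PRL cells, against 573 ± 36.6 CPM in control cells (SD, n = 3 each, 0.51, edgeR adjusted p = 4.0e-04). PDIA6 (0.47, edgeR adjusted p = 0.0012) and P4HB, the archetypal protein disulfide isomerase (0.36, edgeR adjusted p = 0.0042), rose as well. TXNDC11, a thioredoxin-domain partner of EDEM proteins, was called higher at a small size (0.21, edgeR adjusted p = 0.030). That call ended without control replicate 1 (edgeR adjusted p = 0.0513), without each PRL library in turn (0.0719 to 0.120), without a filter (0.0537), with DESeq2 (DESeq2 adjusted p = 0.0859) and with the replicate number as a block (0.0768). TXNDC5, a thioredoxin-domain isomerase, fell to 171.9, 184.9 and 179.3 CPM in PRL libraries, against 220.4, 219.9 and 242.0 CPM in control libraries (-0.35, SE 0.08, edgeR adjusted p = 0.0023). Of its exon bases, 60.6% also belong to the readthrough gene BLOC1S5-TXNDC5, so the division of reads between them is uncertain.

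Of 6 sensors and transcription factors 4 rose (66.7%, where 32.4% of all genes did), 1 fell and 1 did not pass, with a median of 0.38. The transcripts of 2 of the 3 sensors rose, and ATF6 was the one that did not pass. EIF2AK3, which encodes PERK, had 11.7, 12.5 and 13.9 CPM in PRL libraries, against 4.47, 4.85 and 6.61 CPM in control libraries. The lowest PRL library was well above the highest control (1.25, SE 0.16, edgeR adjusted p = 6.3e-05). The gene spans bases 88556741 to 88627576 of GRCh38 chromosome 2. Antisense or other opposite-strand genes overlap 14.4% of its exon bases, 25.2% of PDIA6, 14.8% of PDIA3, 13.5% of OS9 and 77.0% of DERL3, and 23.2% of DNAJB11 is shared with other genes in all. If counting ignored strand, their reads could not be told apart. ERN1, which encodes IRE1alpha, had 13.5, 14.0 and 13.3 CPM in PRL libraries, against 6.78, 8.68 and 6.55 CPM in control libraries, also without overlap (0.89, SE 0.13, edgeR adjusted p = 1.6e-04). ATF6 had 68.2, 68.3 and 65.1 CPM in PRL libraries, against 59.0, 57.9 and 63.7 CPM in control libraries, and did not pass (0.16, SE 0.07, edgeR adjusted p = 0.081). Without control replicate 3, the highest ATF6 control, the call was made (0.22, edgeR adjusted p = 0.0083).

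For ATF6 the deposited measures diverged. In TPM, a transcript's share of the library after division by its length, it stood at 21.6, 20.2 and 20.0 in PRL libraries, against 9.23, 10.8 and 12.7 in control libraries, without overlap. FPKM relates fragments to transcript length and library size. On log2(FPKM + 1) the log2 fold change of ATF6 was 0.66 (limma adjusted p = 2.2e-04), while the median of all genes on that scale was 0.20. Counts divided by FPKM give the transcript length that the authors' estimate used. That length was 5833, 6078 and 5748 bases in PRL libraries, against 7427, 7445 and 7120 bases in control libraries. Of 9978 genes with at least 100 counts in every library, 1.44% had a larger change in this length. The other sensors changed less, with ERN1 at 8498 ± 139 bases in PRL cells and 9139 ± 48.4 bases in control cells (SD, n = 3 each). Which ATF6 transcripts were counted was not tested.

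XBP1, the substrate of IRE1alpha and a luminal epithelial transcription factor, rose to 916, 930 and 938 CPM in PRL libraries, against 730.5, 677 and 836 CPM in control libraries (0.31, SE 0.10, edgeR adjusted p = 0.016). Its call ended without any 1 of the PRL libraries, with edgeR adjusted p of 0.0554 to 0.0663 for replicates 1 to 3. CREB3L2, a membrane-bound transcription factor of the same family type as ATF6, had 24.8, 23.5 and 21.9 CPM in PRL libraries, against 14.2, 17.7 and 19.6 CPM in control libraries (0.44, SE 0.12, edgeR adjusted p = 0.0080). Its relative CREB3 fell to 44.3, 44.8 and 45.6 CPM in PRL libraries, against 70.2, 58.4 and 57.2 CPM in control libraries (-0.46, SE 0.09, edgeR adjusted p = 0.0012). The 3 PRL libraries of CREB3 were nearly equal, and control replicate 1 was the highest.

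Both regulatory subunits that direct protein phosphatase to eIF2alpha rose. PPP1R15A, the stress-inducible subunit also known as GADD34, had 42.6, 40.1 and 39.8 CPM in PRL libraries, against 19.1, 20.3 and 16.1 CPM in control libraries (1.14, SE 0.10, edgeR adjusted p = 5.9e-06). PPP1R15B, the constitutive subunit, had 60.5, 61.8 and 59.8 CPM in PRL libraries, against 45.5, 48.2 and 50.4 CPM in control libraries (0.34, SE 0.07, edgeR adjusted p = 0.0023). Neither gene had overlapping groups.

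**Figure D3:**
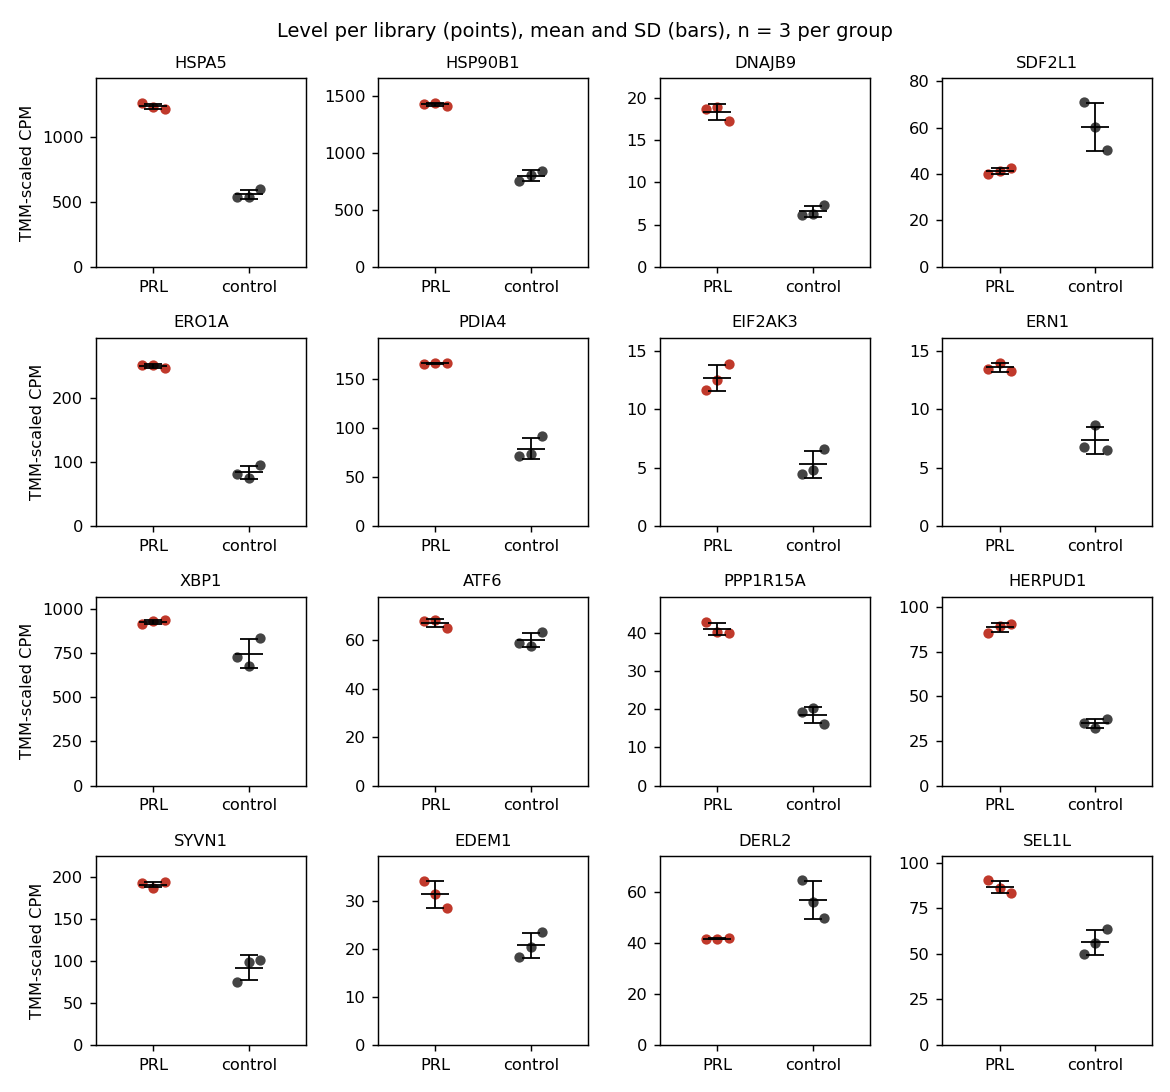
TMM-scaled CPM of 16 members in each library (points), with mean and SD (bars, n = 3), PRL left and control right in each panel, and vertical axes that start at 0. PRL libraries lie above all control libraries in every panel other than SDF2L1 and DERL2, where they lie below.

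Of 9 degradation genes tested, 4 rose (44.4%, where 32.4% of all genes did), 1 fell and 4 did not pass, with a median of 0.18. The 4 that rose include core parts of the HRD1 ligase complex. HERPUD1, which organises that complex and is itself stress-inducible, spans bases 56932048 to 56944863 of GRCh38 chromosome 16. It had 85.8, 89.8 and 90.9 CPM in PRL libraries, against 35.0, 32.4 and 37.2 CPM in control libraries (1.35, SE 0.08, edgeR adjusted p = 4.3e-07). SYVN1, the HRD1 ubiquitin ligase, had 192, 186.7 and 193 CPM in PRL libraries, against 75.2, 98.7 and 101.5 CPM in control libraries (1.05, SE 0.11, edgeR adjusted p = 1.9e-05). The PRL libraries of both genes were far above their controls, and control replicate 1 was the lowest for SYVN1.

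SEL1L, the adaptor of HRD1, had 90.4, 86.3 and 83.7 CPM in PRL libraries, against 49.8, 55.9 and 63.6 CPM in control libraries (0.62, SE 0.09, edgeR adjusted p = 2.3e-04). EDEM1, a mannosidase-like factor that marks glycoproteins for degradation, had 34.3, 31.4 and 28.6 CPM in PRL libraries, against 18.3, 20.4 and 23.6 CPM in control libraries (0.60, SE 0.11, edgeR adjusted p = 9.1e-04). In both genes control replicate 3 was the highest control and still below every PRL library. The related EDEM2 had 39.9, 45.6 and 39.5 CPM in PRL libraries, against 36.3, 36.5 and 37.5 CPM in control libraries, and did not pass (0.18, SE 0.08, edgeR adjusted p = 0.0775), though it did without control replicate 3 (0.21, edgeR adjusted p = 0.035).

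The derlins, channel-forming membrane proteins, were not called higher on the TMM scale. DERL1 had 108.4, 113.5 and 112.5 CPM in PRL libraries, against 104.6, 102.3 and 105.5 CPM in control libraries (0.10, SE 0.07, edgeR adjusted p = 0.230). DERL2 fell to 41.6, 41.8 and 42.1 CPM in PRL libraries, against 65.0, 56.3 and 49.98 CPM in control libraries (-0.45, SE 0.10, edgeR adjusted p = 0.0022), with control replicate 3 again nearest to the PRL libraries. OS9, a lectin that delivers glycoproteins to HRD1, had 349.9, 358.8 and 354.3 CPM in PRL libraries, against 348.6, 355 and 299.7 CPM in control libraries. SELENOS, a selenoprotein of the retrotranslocation complex, had 31.1, 33.2 and 33.4 CPM in PRL libraries, against 37.1, 33.2 and 34.5 CPM in control libraries. Groups overlapped for both, and neither passed (edgeR adjusted p = 0.415 and 0.288). SERP1, a translocon-associated stress protein, overlapped too, with 225.0, 224.3 and 223.4 CPM in PRL libraries, against 227.1, 195.6 and 210.5 CPM in control libraries (0.09, SE 0.08, edgeR adjusted p = 0.350).

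Calls in both directions depended on the scale. On the TMM scale SDF2L1, TXNDC5, CREB3 and DERL2 were lower, where 30.5% of all genes were. With library totals or on log2(FPKM + 1), 2 members were called lower, SDF2L1 and CREB3, where 17% and 19.9% of all genes were. On TPM, 0 members were called lower by limma, at an adjusted or an unadjusted p under 0.05. Of all genes, 11% were called lower on log2(TPM + 1) and 10.9% on log2(TPM + 0.1). CREB3 had 56.6, 55.8 and 55.7 TPM in PRL libraries, against 56.3, 56.3 and 56.0 TPM in control libraries. DNAJB11, DNAJC3 and SELENOS, which did not pass on the TMM scale, were called higher on log2(TPM + 1), with limma adjusted p of 0.0036, 0.017 and 0.0044. With library totals DERL1, OS9 and SERP1 were called higher (edgeR adjusted p = 0.0020, 0.0032 and 8.4e-04). ATF6 and EDEM2 were called higher with upper-quartile scaling (edgeR adjusted p = 0.026 and 0.030). Members called higher numbered 30 with library totals, 30 on FPKM and 33 on TPM, where 45.7%, 46.3% and 57% of all genes were. On TPM all PRL libraries were above all controls for 34 members and below for 0, where 59.3% of all genes were above and 12.4% below. Library totals, FPKM and TPM shifted the median of all genes upwards, though not every single gene. That median was 0.26 with library totals, 0.20 on FPKM and 0.39 on TPM with a pseudocount of 1, against 0.01 on the TMM scale. Of all changed genes, 51.4% were higher on the TMM scale, 72.9% with library totals, 69.9% on FPKM and 83.8% on TPM. The members' median minus that of all genes was 0.34 on the TMM scale, 0.34 with library totals, 0.40 on FPKM and 0.40 on TPM.

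**Figure D4:**
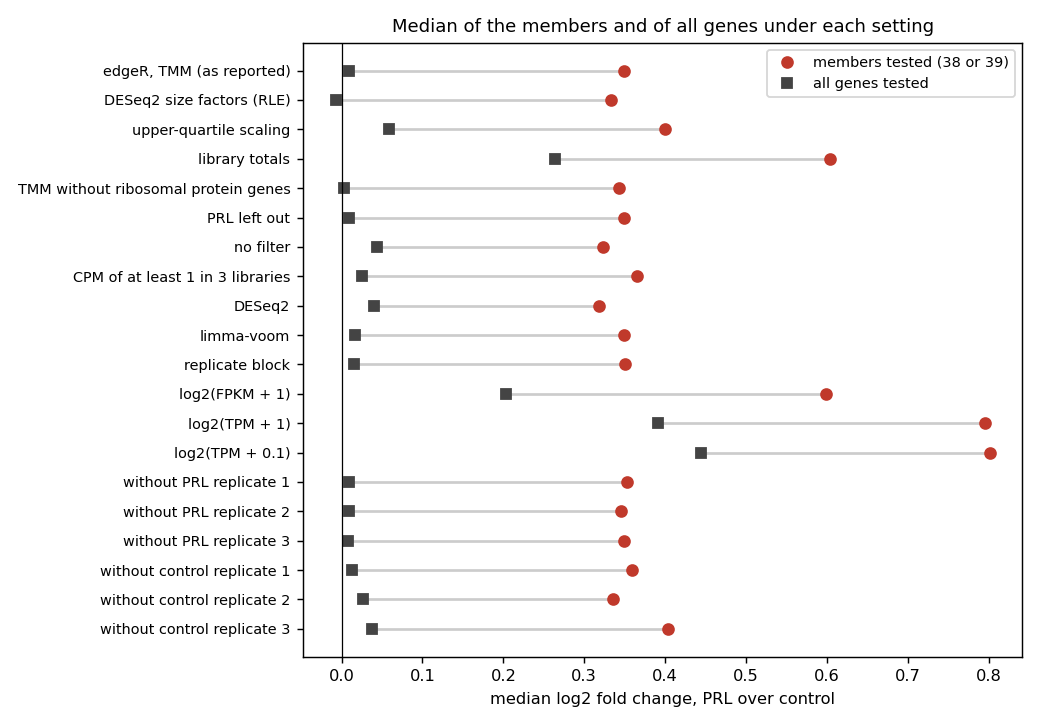
Median log2 fold change, PRL over control, of the tested members (circles) and of all genes tested (squares) under each setting. The members' median reaches from 0.32 to 0.80 and lies above that of all genes in every setting shown, while the TPM, FPKM and library-total settings move both to the right.

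Ratios of paralogues were compared in 5 pairs, chosen by family, on TMM-scaled CPM. These have no length correction, so only the difference between groups is read from them, not which gene is the more abundant. The log2 ratio of ERO1A to ERO1B was 3.48 ± 0.02 in PRL cells and 2.79 ± 0.14 in control cells (SD, n = 3 each). PPP1R15A to PPP1R15B was at -0.57 ± 0.06 in PRL cells and -1.38 ± 0.23 in control cells, a difference of 0.81 and the largest of the 5. The pairs DERL1 to DERL2, CALR to CANX and EDEM1 to EDEM2 differed by 0.54, 0.45 and 0.42 between PRL and control cells. In each pair the ratio was higher in all 3 PRL libraries than in any control library. Of all single genes tested, 69.5% had groups that did not overlap, and ratios of other gene pairs were not computed. Per length, the ratio of PPP1R15A to PPP1R15B in TPM was 1.57, 1.44 and 1.48 in PRL libraries, against 0.926, 0.930 and 0.708 in control libraries, and the difference of the log2 ratios was 0.82. On TPM the other differences were 0.61 for ERO1A to ERO1B, 0.45 for DERL1 to DERL2, 0.45 for EDEM1 to EDEM2 and 0.45 for CALR to CANX. An exact two-sided permutation test on the CPM ratios gave p = 0.10 for every pair (0.10 also after Benjamini-Hochberg adjustment over the 5 pairs), which is the smallest p that 3 against 3 libraries allow.

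Per unit of transcript length, the members spanned a wide range. The highest were CALR at 1723 ± 16.9 TPM in PRL cells and 777 ± 89.6 TPM in control cells, P4HB at 1429 ± 22.5 TPM and 810.3 ± 71.7 TPM, and XBP1 at 948.5 ± 10.4 TPM and 562.6 ± 95.8 TPM, with PRL cells before control cells each time (SD, n = 3 each). The PRL transcript stood in the same range in PRL cells, at 961 ± 38.4 TPM, against 0.233 ± 0.117 TPM in control cells. The sensors other than ATF6 were rare, with ERN1 at 2.89 ± 0.0709 TPM in PRL cells and 1.06 ± 0.228 TPM in control cells, and EIF2AK3 at 5.36 ± 0.314 TPM and 1.67 ± 0.474 TPM. All 39 members summed to 8688, 8553 and 8401 TPM in PRL libraries, against 3971, 4682 and 4918 TPM in control libraries. The summed level in PRL cells was 1.89-fold that of control cells on TPM and 1.44-fold on TMM-scaled CPM. Over all genes the median log2 fold change was 0.39 on log2(TPM + 1) and 0.01 on the TMM scale. Chaperones made up about as much of the summed TPM as all the other roles together in PRL cells, with 4411, 4352 and 4252 TPM.

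On the TMM scale, other ER genes were mixed, where 32.4% of all genes tested were called higher and 30.5% lower. Of 36 other tested ER folding genes 9 rose (25%) and 14 fell (38.9%), with a median of -0.19. QSOX1, a secreted sulfhydryl oxidase, rose to 213, 218 and 222 CPM in PRL libraries, against 78.9, 83.8 and 99.4 CPM in control libraries (1.32, edgeR adjusted p = 1.5e-06). MLEC, an ER lectin (-0.80), and PRDX4, an ER peroxiredoxin (-0.77), fell, with edgeR adjusted p of 2.5e-05 and 3.1e-05. Of 30 other degradation genes 11 rose (36.7%) and 11 fell (36.7%), both near the shares of all genes, with a median of -0.03. UFD1, a cofactor of the p97 segregase (-0.88), and SVIP, a small p97-binding inhibitor of degradation (-0.92), fell, and ERLEC1, a lectin like OS9, rose (0.61), with edgeR adjusted p from 2.9e-05 to 1.2e-04. Of 25 genes of translocation, signal peptidase and N-glycosylation 2 rose (8%) and 13 fell (52%), with a median of -0.21. Among the 13 were SRPRB, a signal recognition particle receptor subunit (-0.93), KRTCAP2, an oligosaccharyltransferase subunit (-0.93), and SEC11A, a signal peptidase subunit (-0.57). These directions depended on the scale. On TPM, where 59.3% of all genes had every PRL library above every control and 12.4% every one below, the folding list had 22 above and 5 below, the degradation list 21 and 2, and the translocation list 12 and 4. MLEC, PRDX4, UFD1, SVIP, SRPRB and KRTCAP2 were below on TPM too, and SEC11A overlapped.

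Genes of the ATF4 and CHOP branch were mostly higher, and whether PERK acted on them was not tested. Of 23 such genes 20 rose (87%, where 32.4% of all genes did) and 2 fell (8.7%, where 30.5% did), with a median of 0.64. DDIT3, which encodes the transcription factor CHOP, had 88.1, 89.2 and 97.3 CPM in PRL libraries, against 19.2, 20.5 and 19.2 CPM in control libraries (2.22, SE 0.08, edgeR adjusted p = 1.1e-08), with no overlap. ATF3, a stress-induced transcription factor, rose by 1.83 (edgeR adjusted p = 1.1e-07), and STC2, which encodes the secreted stanniocalcin 2, fell to 144, 139 and 150 CPM in PRL libraries, against 561, 593 and 626 CPM in control libraries (-2.04, edgeR adjusted p = 2.5e-08). Many of these genes also respond to amino acid shortage and other stresses. Of 20 other sensors and transducers 5 rose (25%) and 11 fell (55%), with a median of -0.30.

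CREB3L1, a membrane-bound transcription factor related to CREB3L2, had 313, 291 and 330 counts in PRL libraries, against 3, 4 and 2 in control libraries, a ratio of 89.7 with a 95% counting interval of 47.1 to 197 (edgeR adjusted p = 5.8e-09). It was thus near the detection floor in all controls and clearly present in all PRL libraries. EIF2AK2, the double-stranded RNA-activated eIF2alpha kinase PKR, rose to 168, 162 and 156 CPM in PRL libraries, against 47.04, 48.3 and 50.9 CPM in control libraries (1.73, edgeR adjusted p = 4.0e-08). EIF2B5, the catalytic subunit of eIF2B, fell by 0.71 on the log2 scale (edgeR adjusted p = 2.2e-05). Of 8 ER-phagy receptor genes 1 rose (12.5%, where 32.4% of all genes did) and 4 fell (50%, where 30.5% did). CALCOCO1 rose by 1.20, and ATL3 and RETREG3 were at -0.70 and -0.51, with edgeR adjusted p of 5.3e-06, 2.2e-05 and 0.0041. On TPM, 59.3% of all genes had every PRL library above every control and 12.4% every one below. The sensor and transducer list had 10 above and 4 below of 20 tested. The ER-phagy list had 5 and 0 of 8, and the ATF4 and CHOP list 20 and 2 of 23. ATL3 and RETREG3 overlapped on TPM.

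**Figure D5:**
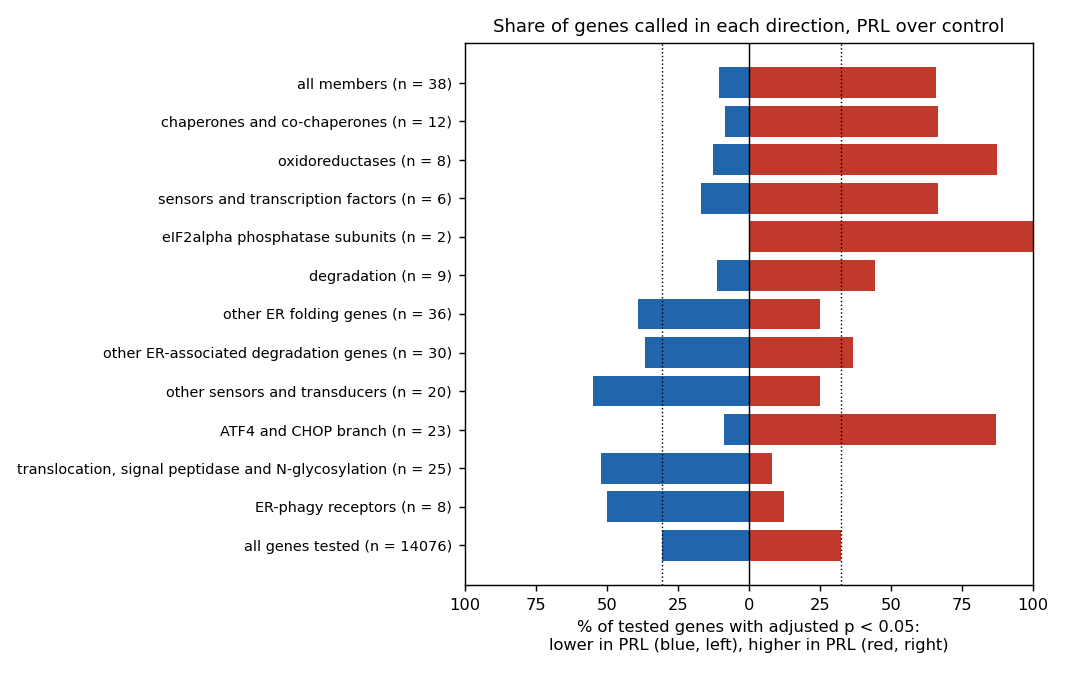
Share of tested genes called lower (blue, left) and higher (red, right) in PRL cells, in percent, for the members, their roles, the other ER lists and all genes tested, with the number tested in brackets. The dotted lines mark all genes at 30.5% lower and 32.4% higher, and the members stand at 10.5% and 65.8%.

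Control libraries spread more than PRL libraries. The median coefficient of variation of the 38 tested members was 2.25% in PRL libraries and 6.92% in control libraries, and 4.59% and 12.1% over all genes tested. It was larger in controls for 36 of the 38 members and for 11803 of 14076 genes. Of the 29 called members, control replicate 3 was the control nearest to the PRL mean for 21 (72.4%), and control replicate 1 the farthest for 18 (62.1%). Over 8751 called genes with a count in every library these shares were 56% and 54.2%. Without control replicate 3, 27 members were called higher and 4 lower, where 36.7% and 32.7% of all genes were.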

How the data were processed

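Expected counts, FPKM and TPM per gene and library were deposited by the authors in 1 table of 17891 genes. HISAT2 2.1.0, Bowtie2 2.3.4.3 and the build GRCh38.p13 are named in the submitters' processing notes; for the counting tool, its strand setting and its annotation the sources used here give nothing. The deposited counts were not whole for 44.08% to 45.89% of values and were rounded. The 6 columns of group means were not used.

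Counts of the 3 PRL and 3 control libraries were tested with edgeR 4.0.16 (R 4.3.3; filterByExpr, TMM, robust quasi-likelihood fit) with Benjamini-Hochberg adjustment over 14076 genes. On simulated counts with 200 changed genes it called 53 of 66 genes changed 1.5-fold, 57 of 67 changed 2-fold, 62 of 62 changed 4-fold and 8 of 13711 unchanged genes. The simulation gave both groups the same dispersion. In the data 62.9% of genes were called and controls spread more (median coefficient of variation 12.1%, against 4.59%), so these rates need not hold for them. FPKM and TPM were tested with limma 3.58.1 as log2(value + 1), keeping genes with a mean of at least 1, and TPM also with a pseudocount of 0.1. The deposited TPM served to compare levels between genes. Other alternatives were DESeq2 1.42.0, limma-voom, other scalings and filters, a replicate block and leaving out each library. Paralogue ratios were computed on TMM-scaled CPM; the same ratios on TPM, and counts of groups apart on TPM for each list, were added after seeing the data. Libraries of a group differed by more than sampling noise, control libraries by far more than PRL libraries. A chi-square per gene, which sampling noise alone would put near 1, was 1.66 to 2.17 between PRL libraries. Between control libraries it was 12.7 to 24.4. Intervals and floors cover counting error only.

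All members were named. Values of every library were given for members past the threshold with an absolute log2 fold change of at least 0.58, for sensors and for members that did not pass, and for some others chosen after their values were seen. Of each other list the 3 genes with the smallest adjusted p were named. The members and lists were chosen with earlier results of these data known. Promoter sequences are from RefSeq (GRCh38.p14) and gene positions and exon overlaps from GENCODE on GRCh38.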

Additional observations from a re-analysis of the deposited data

How the results depend on the processing

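Across 38 tested members and 19 settings, 649 of 722 comparisons kept direction and side of the threshold, 29 lost the call, 24 gained one and 20 changed sign. ATF6 and EDEM2 gained a call in 6 settings each, and DERL1, OS9 and SERP1 in 4 each. Of the 25 members called higher, 21 kept the call in every setting, and CANX, CRELD2, TXNDC11 and XBP1 did not. CRELD2 was lost also with DESeq2 size factors (edgeR adjusted p = 0.0574), without a filter (0.0699) and with DESeq2 (0.135), and TXNDC11 without a filter (0.0537) and with DESeq2 (0.0859). Members called lower numbered 2 with library totals, 2 on log2(FPKM + 1), 0 on log2(TPM + 1) and 0 on log2(TPM + 0.1). In the same order, 17%, 19.9%, 11% and 10.9% of all genes were called lower. Those TPM counts of members were also 0 at an unadjusted p under 0.05 in limma. On log2(TPM + 1) and log2(TPM + 0.1) the sign turned for DNAJB11 (0.28 and 0.28), DNAJC3 (0.36 and 0.38), DNAJC10 (0.29 and 0.38), TXNDC5 (0.11 and 0.11), DERL2 (0.0118 and 0.0124) and SELENOS (0.36 and 0.37), where all genes had medians of 0.39 and 0.44; with library totals and on log2(FPKM + 1) it turned for DNAJB11 (0.14 and 0.0824), DNAJC3 (0.19 and 0.17), DNAJC10 (0.19 and 0.13) and SELENOS (0.15 and 0.17), none of them called there. The cause was not tested. Leaving out 1 library at a time gave 7590 to 9952 changed genes, 21 to 27 members higher and 4 to 4 lower. Of all genes, 27.6% to 36.7% were then called higher and 25.7% to 32.7% lower. With the replicate block 8531 genes changed, 22 members were higher and 4 lower, where 31.4% and 29.2% of all genes were. No pairing by replicate number was seen: deviations of same-numbered libraries correlated at -0.11, 0.04 and -0.06, and not every library correlated best with its own number. With 3 libraries per group such correlations cannot decide whether the libraries were paired. Counts of DERL3 were too low for a test.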

Other observations

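Lengths implied by counts and FPKM also separated the groups for CREB3L2, at 6859 ± 336 bases in PRL cells and 6326 ± 267 bases in control cells, for DERL1, at 3099 ± 24.9 and 2911 ± 72.2 bases in the same order, and for ERO1B, at 5360 ± 84.4 and 5664 ± 224 bases (SD, n = 3 each). Among members with at least 100 counts in every library, 16 of 36 had groups that did not overlap in this length, against 4312 of 9978 genes.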
